A study of Capsicum annuum with 5 samples.

Results

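The miR169 family of pepper (Capsicum annuum) comprised 12 hairpins of the 165 distinct hairpins in the deposited annotation. Members were the precursors named can-miR169 plus a letter (a to l), together with all 24 mature sequences cut from them. That rule used names and no measured value, but it was set with earlier results of these data known. Small RNA of the inbred line Zunla 1 was sequenced in 5 tissues with 1 library each, namely developing roots, developing stems, mature leaves, fully open flowers and fruits. Roots, stems and leaves came from soil-grown greenhouse plants in full bloom, kept at 22 °C with 16 h of light. The fruit sample is labelled mature green, whereas the series text puts self-pollinated fruit at 30 days, beginning to redden, and that conflict could not be resolved. The extraction text speaks of frozen root material in every sample, and the tissue labels were used as given.

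In plants, miR169 guides the cleavage of transcripts of NF-YA genes. NF-YA is the DNA-binding subunit of nuclear factor Y, a trimeric transcription factor that recognises the CCAAT box. The guide strand comes from the 5′ arm of the hairpin, and the strand cut from the 3′ arm is the passenger. Below, guide and passenger are names for the 5′ and 3′ arms taken from that background. Which strand acted as guide was not measured here, and in some members the 3′ arm had more tags. In Antirrhinum and petunia, miR169 genes (FISTULATA and BLIND) restrict floral organ identity genes to the inner whorls of the flower. In Arabidopsis and tomato, family members have been tied to drought and nitrogen supply. No NF-YA transcript was measured in these libraries, and the data hold no marker transcripts against which the labelled tissues could be checked. In whole tissues, fewer cells that make a miRNA and less of it per cell cannot be told apart.

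The 12 hairpins listed 6 distinct 5′ arm sequences and 9 distinct 3′ arm sequences. All 6 of the 5′ arm sequences were 21 nt long. They are shown because they divide the family into groups with different seeds, with the seed (bases 2 to 8) in capitals and U written as T, as in the deposited annotation.
miR169a-5p: cAGCCAAGgatgacttgccga
miR169b-5p: cAGCCAAGgatgacttgccgg
miR169c-5p: cATCCAAGgatgacttgccga
miR169d/e/j-5p: tAGCCAAGgatgacttgccta
miR169f/g/h/i/k-5p: tAGCCAAGgatgacttgcctg
miR169l-5p: tGATAGCCaaggatgactggt

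Of the 3 seeds, agccaag was shared by 4 of the distinct guide sequences and 10 hairpins. miR169c and miR169l each had a seed of their own. None of the 3 seeds occurred at bases 2 to 8 of the 230 distinct mature sequences of other families. Against miR169b-5p, with positions counted from 1 at the 5′ end, miR169a-5p carried G21A and miR169c-5p carried G3T and G21A. The sequence of miR169d, e and j carried C1T, G20T and G21A, and that of miR169f, g, h, i and k carried C1T and G20T. The change inside the seed was G3T, in miR169c, and the other changes lay at the ends.

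The longest stretch common to all 6 guide sequences had 12 nt and was found in each of the 12 precursors, and in 0 of the 153 precursors of other families. It is in capitals here, to show that miR169l was cut in another frame.
miR169b-5p: cagCCAAGGATGACTtgccgg
miR169l-5p: tgatagCCAAGGATGACTggt
The stretch began at position 4 in 5 of the distinct guide sequences and at position 7 in miR169l-5p, so the listed miR169l guide started 3 nt further upstream. Read in the frame of miR169b-5p, the miR169l precursor holds tagccaaggatgactggttaa, which differs from miR169b-5p by 6 substitutions (C1T, T16G, C18T, C19T, G20A and G21A). Of these, 1 fell in the first 15 nt and 5 in the last 6 nt. The name miR169l was kept as the annotation gives it, but by seed and by its 3′ end this sequence stood apart from the other guides of the family.

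The passenger strands varied more than the guides. They were 18 to 22 nt long, 7 of the 9 began with G, and they held 5 seeds. Their seeds are in capitals in the 3 passenger sequences that reached 10 tags over the 5 libraries.
miR169l-3p: cGGTCATCtgcggttatcaaa
miR169a/c-3p: gGCAGGTCatccttggctata
miR169d/e-3p: gGCAGTCGtctttagctata
The passenger of miR169a and miR169c was identical although their guides differed, and miR169d and miR169e were identical in both arms. In all, 5 distinct sequences stood on more than 1 hairpin, so their tags cannot be assigned to a locus. The levels below therefore count each distinct sequence once.

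The hairpins lay on 6 chromosomes, 8 on the plus strand. No genome build is named in the sources used here for these positions, and gene context was not analysed. Chromosome 7 carried 5 members within 866.7 kb, in the order f, j, g, h and i, with miR169j on the minus strand and the rest on the plus strand. On chromosome 10, miR169c and miR169a were 131 bp apart on the minus strand, and on chromosome 8 miR169d and miR169e were 63382 bp apart on the plus strand. miR169b, miR169k and miR169l were each the sole member on chromosomes 2, 4 and 6. Within 10 kb of another member lay 4 hairpins (a with c, and h with i), and 8 lay within 100 kb, a distance chosen after the positions were seen.

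**Figure D1:**
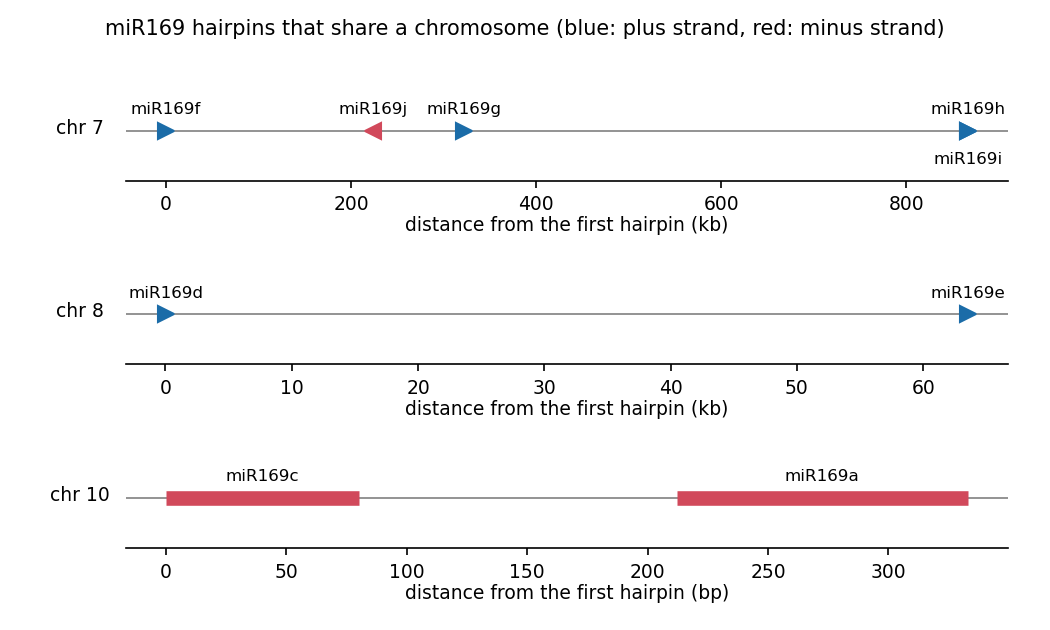
Positions of the 9 miR169 hairpins that share a chromosome, as the distance from the first hairpin of that chromosome (kb for chromosomes 7 and 8, bp for chromosome 10). Blue marks the plus strand and red the minus strand, and the 5 hairpins of chromosome 7 span 866.7 kb with miR169h and miR169i 335 bp apart.

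Hairpins that shared a chromosome had the higher identities, although the ranges overlapped. Over the 12 pairs on the same chromosome the precursors had 59.8% to 92.1% identical aligned positions (median 69.6%), and over the 54 pairs on different chromosomes 44.4% to 67.3% (median 55.1%). The pairs share hairpins, so these are descriptions without a test. Closeness and likeness did not go together on chromosome 7, where miR169f and miR169g were 92.1% identical at 321449 bp from each other and the neighbours miR169h and miR169i, 335 bp apart, were 72.4% identical. The chromosome 10 neighbours miR169a and miR169c are shown with both mature arms in capitals, as they carried the same passenger and different guides.
miR169a, chr10:167387301-167387422, minus strand: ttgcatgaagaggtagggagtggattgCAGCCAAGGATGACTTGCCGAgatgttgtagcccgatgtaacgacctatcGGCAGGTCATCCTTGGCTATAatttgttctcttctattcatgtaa
miR169c, chr10:167387089-167387169, minus strand: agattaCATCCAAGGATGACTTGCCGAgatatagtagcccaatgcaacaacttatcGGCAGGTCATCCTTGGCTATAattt
They were 59.8% identical over the whole precursors, of which that of miR169a was 122 nt and that of miR169c 81 nt long. Between the arms, where both had 29 nt, they were 79.3% identical.

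The precursors of the most abundant members are shown for comparison.
miR169l, chr6:12799709-12799834, plus strand: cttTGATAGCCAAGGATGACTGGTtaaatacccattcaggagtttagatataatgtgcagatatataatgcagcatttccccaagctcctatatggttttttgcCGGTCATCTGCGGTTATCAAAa
miR169b, chr2:159570179-159570308, minus strand: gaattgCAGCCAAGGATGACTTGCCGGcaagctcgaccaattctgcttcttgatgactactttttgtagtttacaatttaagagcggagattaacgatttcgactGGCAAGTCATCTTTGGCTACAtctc
miR169l shared 48.4% to 58.9% of aligned positions with the other 11 precursors (median 52.6%). In the deposited structures, 11 of the 12 members (91.7%) had 3′ overhangs of 2 nt at both ends of the duplex, which is the mark of Dicer-like cutting, against 97 of 105 other hairpins with both arms and a readable structure (92.4%). The exception was miR169f, whose listed passenger is 18 nt long. The 5′ arm sequence had 1 to 4 unpaired bases in miR169 hairpins (median 2) and 0 to 6 in the others (median 3), and miR169l had 3. Member precursors were 81 to 130 nt long (median 102), against 58 to 321 nt in the 153 others (median 101). Folding energies computed with RNAfold ranged from -54.6 to -31.8 kcal/mol per 100 nt in the members (median -45.1) and from -83.1 to -13.9 in the others (median -45.6). In length, pairing and folding energy the members thus lay inside the range of the other hairpins, and miR169i was the least stable of them.

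miR169l carried nearly all tags of the family. Over the 5 libraries it had 3528 of 3712 tags (95% Clopper-Pearson interval 94.3% to 95.7%), and the remaining 11 hairpins together had 184. In root and stem, miR169l held all 277 and 716 family tags. It held 370 of 413 in leaf (89.6%, 86.2 to 92.4), 1567 of 1692 in flower (92.6%, 91.3 to 93.8) and 598 of 614 in fruit (97.4%, 95.8 to 98.5). All intervals here cover counting error only, and PCR reads without molecular identifiers are not independent molecules. With 1 library a tissue there is no replicate check on any difference between tissues, and no p-value is given.

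The root library held 160 tags of miR169l-5p, the stem library 394, the leaf library 205, the flower library 732 and the fruit library 387. miR169l-3p had 117, 322, 165, 835 and 211 tags in the same order. Both arms thus had more than 100 tags in every tissue, and the 3′ arm exceeded the 5′ arm in flower and was below it elsewhere. The next sequence, miR169b-5p, had 29 tags in leaf, 58 in flower and 16 in fruit and was listed at 0 in root and stem.

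The passenger miR169a/c-3p had 24 tags in flower and 1 in leaf, and miR169d/e-3p had 11 in flower. Both were listed at 0 in the other tissues. The other 10 distinct sequences had 1 to 9 tags each over all libraries. Among them were the guides miR169c-5p with 9 tags in flower, miR169a-5p with 8 in leaf, miR169f/g/h/i/k-5p with 5 in flower and miR169d/e/j-5p with 3 in flower. The guide that stood on the most hairpins, 5 of them, was thus among the rarest. miR169a listed its guide in leaf and not in flower, and the passenger it shares with miR169c mostly in flower.

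**Figure D2:**
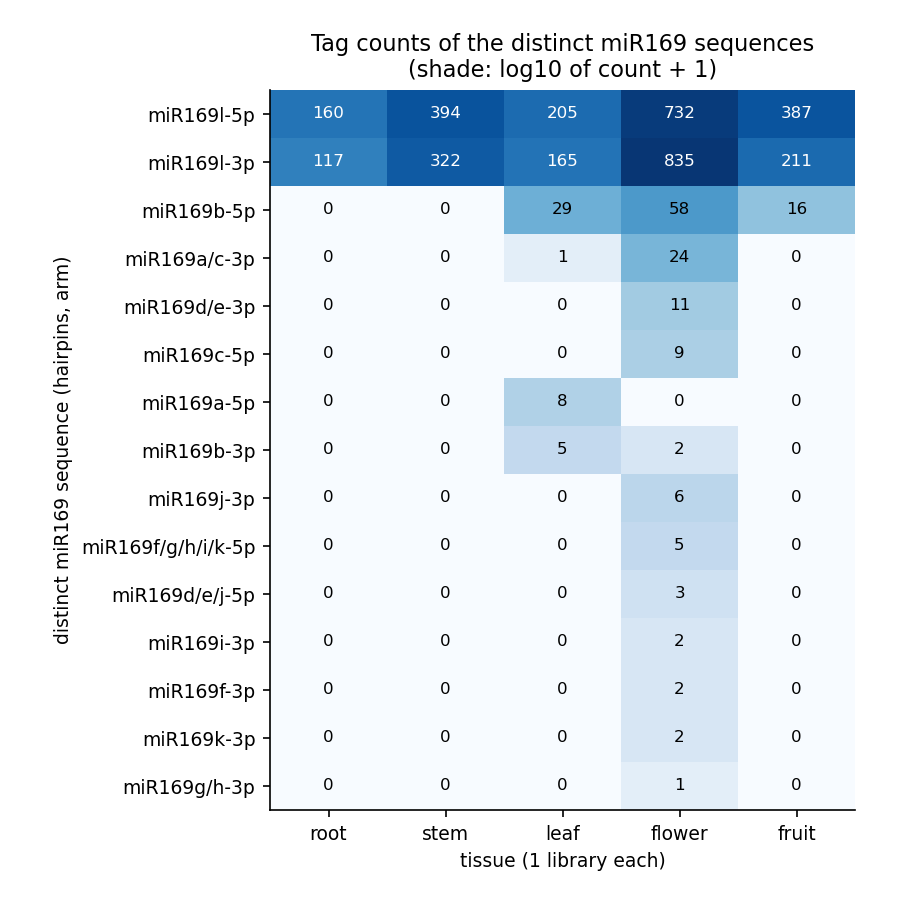
Tag counts of the 15 distinct miR169 sequences (down the page, named by hairpins and arm) in the 5 tissues with 1 library each, with darker shade for a higher log10 of count + 1. miR169l holds the upper 2 lines with 117 to 835 tags in every tissue, and most other sequences have tags in flower only.

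All 12 hairpins had tags in flower, 4 in leaf (a, b, c and l), 2 in fruit (b and l), and miR169l alone in root and stem. The flower tags of miR169a and the leaf tag of miR169c were all of the passenger that both share. Those tags cannot be assigned to either hairpin. Over all hairpins of the annotation, tags were listed for 73.9% in flower, 62.4% in leaf, 58.8% each in fruit and stem, and 54.5% in root. Tags in flower with 0 in the other tissues were listed for 8 of the 12 members, against 15.2% of all hairpins, a share that includes these 8. Low totals were generally not listed, as described next, and these 8 had listed tags through flower alone. No preference for flower is therefore read from this count. These 8 share their tags: the guides of all 8 come from 2 distinct sequences, with 3 and 5 tags, and their hairpin totals in flower were 6 to 14. Flower was also the library with the most listed tags, and the part of depth in these counts was not tested beyond the zeros described next. By the median-of-ratios size factors described there, leaf (1.74) and stem (1.09) stood above flower (0.805). Root (0.654) and fruit (0.663) stood below it.

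Low totals were not listed in general. Of 825 totals per hairpin and library 509 were above 0, and 1 of these lay between 1 and 4 tags, the leaf total of miR169c, a tag of the passenger shared with miR169a. A value of 0 may thus stand for up to 4 tags. Outside miR169l the family had 40 such zeros. If each hairpin had kept its flower share of the listed tags, 18 of the 40 would have reached 5 tags. With median-of-ratios size factors, which set the libraries to the same level for the median family, 36 would have. These zeros include those of the 8 hairpins listed through flower alone, and hairpins that share sequences are counted apart. Neither count is therefore read as a lower level outside flower. At its flower share miR169b would have had 20.5 tags in root and 28.2 in stem, so its 0 there lay below that share by more than the listing limit. miR169g and miR169h would have had 4.80 tags in leaf and 2.05 to 2.82 in root, stem and fruit, below the listing limit of 5. With median-of-ratios scaling these would be 12.99 tags in leaf and 8.11 in stem, above that limit, and 4.87 in root and 4.95 in fruit. Whether a lower level outside flower was detectable for them thus depends on the scaling in leaf and stem, and it was not detectable in root and fruit.

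Family levels were compared as tags per 1000000 listed tags of the library (normalised tags), and the listed totals were 231560 for root, 318815 for stem, 542531 for leaf, 678695 for flower and 311417 for fruit. Root had 1196 normalised tags of the family (95% Poisson interval 1059.5 to 1346), stem 2246 (2084 to 2417) and leaf 761 (690 to 838). Flower had 2493 (2376 to 2615) and fruit 1972 (1819 to 2134). As shares of the listed tags, these are 0.249% in flower, the highest, and 0.0761% in leaf, the lowest. The intervals of leaf and of root overlapped no other tissue's, those of flower and stem overlapped, and so did those of stem and fruit.

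**Figure D3:**
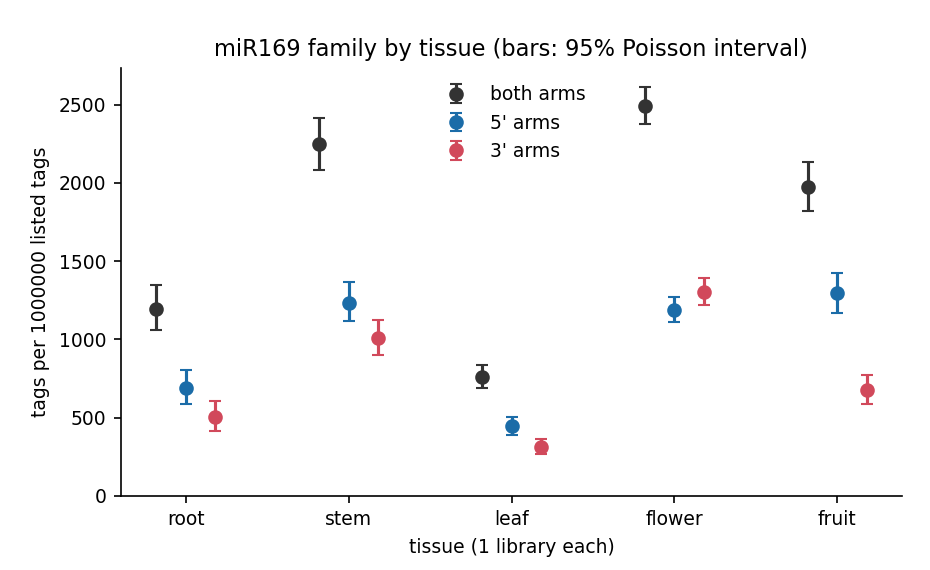
Normalised tags of the miR169 family (tags per 1000000 listed tags) in the 5 tissues, for both arms together, the 5′ arms and the 3′ arms, with 95% Poisson intervals. Both arms are lowest in leaf (761) and highest in flower (2493), while the 5′ arms are at 1294 in fruit and 1189 in flower.

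The family was 3.27-fold higher in flower than in leaf (95% counting interval 2.94 to 3.66, and 2.30 to 8.87 over 4 scalings). Stem stood 2.95-fold above leaf (2.61 to 3.34, scalings 2.12 to 3.62). Fruit stood 2.59-fold above leaf (2.28 to 2.94, scalings 1.69 to 4.66) and root 1.57-fold (1.34 to 1.83, scalings 1.57 to 1.79). Leaf was lowest for the family total under all 4 scalings, and this is the pattern of miR169l. The other 11 hairpins together had 184 normalised tags in flower (153 to 219), 79.3 in leaf (57.4 to 107) and 51.4 in fruit (29.4 to 83.4), and were listed at 0 in root and stem. For them leaf was thus not the lowest tissue as listed. The intervals of leaf and fruit overlapped, and the zeros of root and stem may stand for low counts that were not listed. Which tissue was lowest for these hairpins was therefore not settled. Without miR169l, flower was 2.32-fold above leaf. That fold includes tags of the 8 hairpins listed through flower alone, so no preference for flower is read from it. The order among flower, stem and fruit was not settled, since flower was 1.11-fold above stem (1.02 to 1.21, scalings 1.03 to 3.20) and 1.26-fold above fruit (1.15 to 1.39), but 0.803-fold of fruit when miR166 was left out of the totals.

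Of the 57 families with 10 or more tags, 10 (17.5%) were at least 2-fold higher in flower than in leaf on the scale of normalised tags + 1. miR169, with a 3.27-fold difference, was one of them and ranked 8 in that contrast, at 1.71 log2 units against a median of -0.52 over the families. With median-of-ratios scaling 38.6% of families reached 2-fold, and with totals without miR166 22.8% did. For stem over leaf miR169 ranked 14, and 28.1% of families reached 2-fold (28.1% with median-of-ratios scaling, 36.8% without miR166). For fruit over leaf it ranked 8, and 19.3% did (26.3% and 29.8% under the same alternatives). For root over leaf, in which miR169 itself was below 2-fold, it ranked 24, and 33.3% did (38.6% and 36.8%). For flower over root, at 2.08-fold (1.83 to 2.37, scalings 1.46 to 4.96, below 2-fold with sums over hairpins), it ranked 12, and 21.1% did (28.1% and 21.1%). On the scale of listed totals, the highest tissue led the next by at least 2-fold in 52.6% of the families. miR169 was not among them, with a lead of 1.11-fold. With median-of-ratios scaling flower led fruit, the next tissue, by 2.27-fold in miR169, and 32 of the 57 families had such a lead. Among the distinct sequences of the annotation with 10 or more tags 50.9% had such a lead. miR169a/c-3p and miR169d/e-3p reached 10 tags only through flower, and their zeros may stand for up to 4 tags, so no lead is read from them.

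**Figure D4:**
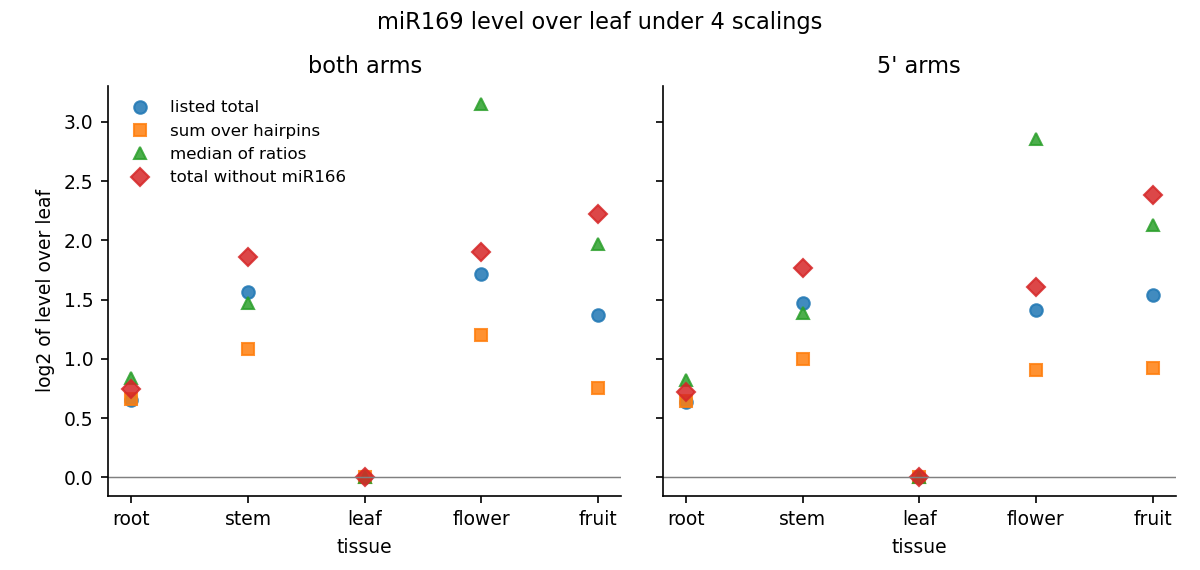
Level of miR169 in each tissue relative to leaf (log2), for both arms (left) and the 5′ arms (right), under 4 scalings marked by symbol. All tissues lie above leaf under every scaling, and for both arms flower lies between 2.30-fold and 8.87-fold of leaf.

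On the scale of listed totals the guide arms were highest in fruit, whereas the family total was highest in flower. Root had 691 normalised tags of these (588 to 807), stem 1236 (1117 to 1364) and leaf 446 (392 to 506). Flower had 1189 (1108 to 1274) and fruit 1294 (1171 to 1427). The intervals of stem, flower and fruit overlapped. Fruit was 2.90-fold higher than leaf (2.47 to 3.42, scalings 1.90 to 5.23), 1.05-fold higher than stem (0.909 to 1.21) and 1.09-fold higher than flower (0.963 to 1.23). Under median-of-ratios scaling flower was highest instead, with fruit at 0.606-fold of flower, and with sums over hairpins stem was, with fruit at 0.950-fold of stem. The family total and the guide arms had the same highest tissue under median-of-ratios scaling (flower) and with totals without miR166 (fruit). Without miR169l, the guide arms had 111 normalised tags in flower, 68.2 in leaf and 51.4 in fruit, so that fruit was at 0.753-fold of leaf and at 0.465-fold of flower. Part of that flower value comes from hairpins listed through flower alone.

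The passenger arms stood at 505 normalised tags in root, at 1010.0 in stem, at 315 in leaf, at 1304 in flower and at 678 in fruit. Flower was 4.14-fold higher than leaf (3.51 to 4.90, scalings 2.91 to 11.2) and 1.29-fold higher than stem (1.14 to 1.47). miR169l-3p had 835 of the 885 passenger tags in flower.

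Both arms of miR169l gave a large share of its tags in every tissue, and the 5′ arm share differed from 50% in each by more than its counting interval. Its 5′ arm gave 57.8% of the tags in root (51.7 to 63.6), 55.0% in stem (51.3 to 58.7) and 55.4% in leaf (50.2 to 60.5, Clopper-Pearson intervals). It gave 46.7% in flower (44.2 to 49.2) and 64.7% in fruit (60.7 to 68.5). The interval of flower, the lowest, overlapped no other tissue's, and that of fruit, the highest, overlapped the interval of root alone. These shares are taken within a library and do not depend on how libraries are scaled.

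A lower arm of this size was rare among the 76 hairpins that listed 1 sequence from each arm and had 100 or more tags. The lower arm of miR169l had 46.8% of its tags over all libraries, against a median of 1.79% over the 76, and the next values were 45.2% in miR477a, with tags in 2 libraries, and 42.8% in miR482b. The pooled value of miR169l was higher than in any single library (35.3% to 46.7%), since the lower arm was the 5′ arm in flower and the 3′ arm elsewhere. In a single library other hairpins also came near to equal arms, with up to 49.4% in miR396a and miR396b. In 55 of the 76 the lower arm had under 10%. In the library where it was least, the lower arm of miR169l still had 35.3%. Of the other hairpins with tags in all 5 libraries, the highest such value was 11.9%, in miR168b. miR172g, with tags in 4 libraries, had 18.8%. Arm balance was looked at in this way after the values of miR169l were seen, and hairpins of a family share tags in this count.

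**Figure D5:**
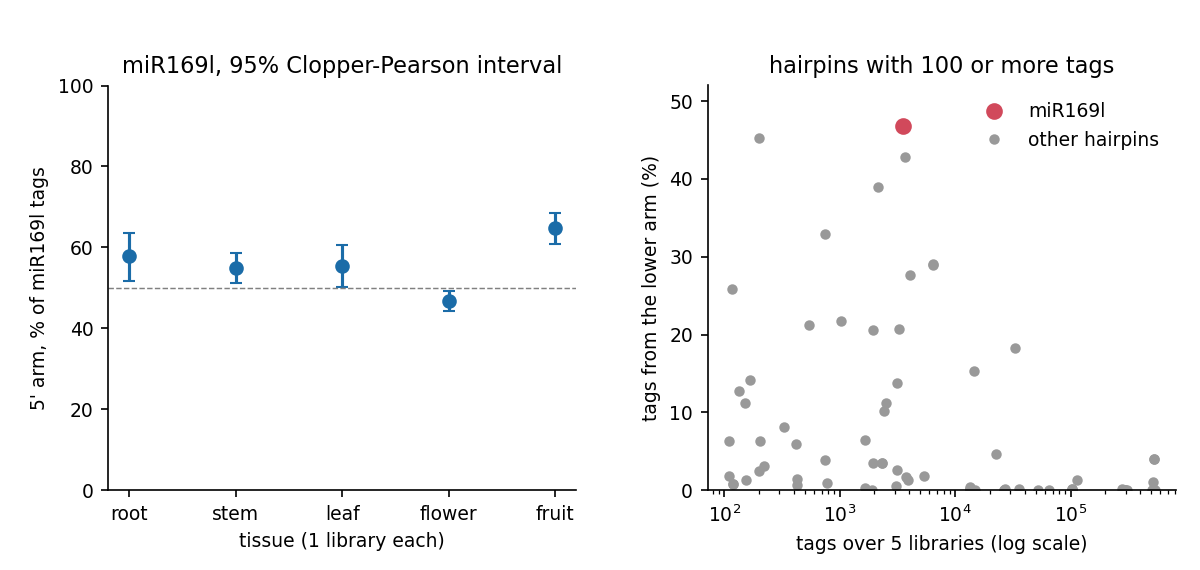
Left, share of miR169l tags from the 5′ arm in each tissue (%, 95% Clopper-Pearson interval, dashed line at 50%). Right, share of tags from the lower arm against all tags (log scale) for 76 hairpins with 100 or more tags, with miR169l (46.8%) above the other hairpins.

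Without miR169l, the guide arms had 37 of 43 tags in leaf (86.0%, 72.1 to 94.7), 75 of 125 in flower (60.0%, 50.9 to 68.7) and 16 of 16 in fruit (interval from 79.4%). miR169b supplied most of these guide tags, with 29, 58 and 16. In miR169b the passenger had 5 tags in leaf and 2 in flower. In flower, passenger tags came mainly from miR169a/c (24) and miR169d/e (11), each above its own listed guides, which in flower had 9 tags for miR169c-5p, 0 for miR169a-5p and 3 for the guide of miR169d, e and j.

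The families whose tissue pattern was most like that of the miR169 guide arms were miR166, miR159 and the candidate miRC27. Likeness was the Euclidean distance between centred log2(normalised tags + 1) values over the 5 tissues, which was 0.87 for miR166, 0.98 for miR159 and 1.42 for miRC27, with a median of 5.02 over 56 families. Only the 5′ arms of miR169 entered, whereas the other families entered with all their listed sequences. miR166, which targets class III HD-ZIP genes, was lowest in leaf and highest in fruit, as were the miR169 guide arms. The miR169 total of both arms was instead highest in flower, at 2493 normalised tags against 1972 in fruit. miR159, which targets GAMYB-like genes, was likewise lowest in leaf, at 1001 normalised tags, and highest in stem, at 2362. In contrast, miRC27 was lowest in flower, at 56.0 normalised tags against 66.4 in leaf, and highest in stem, at 122. Of the 2006 guide tags 1878 were of miR169l-5p, so the pattern compared is mainly that of miR169l. The distance rests on 5 values per family from shared libraries, and miR166 is itself a large part of the totals. The same 3 families were nearest with a pseudocount of 10.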

How the data were processed

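The deposited file was a GFF annotation of 490 lines whose source field names the plant setting of MIREAP, per the file headers. Its mature lines hold the tag counts of the 5 libraries as whole numbers, as the authors deposited them, with no scaling recorded. Trizol extraction, an Illumina small RNA kit and HiSeq2000 sequencing are given in the labels' protocols. Aligner, build, trimming, treatment of multiple matches and library totals were not stated in the sources used.

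Repeated precursor lines were dropped, leaving 165 hairpins. The listed coordinates of all 12 miR169 3′ arms ran backwards and were not used. Arms were taken as typed. Each distinct sequence was counted once per family (highest count over its hairpins) and divided by the listed total counted likewise. Other scalings were sums over hairpins, median-of-ratios size factors (31 families) and totals without miR166. Intervals are Poisson, Clopper-Pearson or, for folds, from the exact binomial split of 2 counts (95%). Families and sequences compared had 10 or more tags. All distinct miR169 sequences with 10 tags and the 3 families nearest to the guide arms were to be named, and rarer members were named afterwards. Structures were those deposited, folding energies came from RNAfold 2.7.2, and alignments from Biopython 1.88 (global, match 1, mismatch -1, gap opening -2, extension -0.5). Intervals used scipy 1.17.1, and the lead criterion was tested on simulated Poisson counts. With 1 library per tissue no test across samples was made. Members and lists were chosen with earlier results of these data known.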

Additional observations from a re-analysis of the deposited data

How the results depend on the processing

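No paired analysis was possible because each tissue has 1 library. Leaf remained the lowest tissue for the family total, the guide arms and the passenger arms under all 4 scalings. Without miR169l leaf was not the lowest as listed, but zeros in other tissues may stand for low counts that were not listed. With median-of-ratios scaling, flower was 3.20-fold above stem, 2.27-fold above fruit and 8.87-fold above leaf for the family, 3.72-fold above stem and 11.2-fold above leaf for the passenger arms, and for the guide arms fruit was 1.68-fold above stem, 4.37-fold above leaf and 0.606-fold of flower. With totals without miR166, flower was 3.74-fold above leaf and 0.803-fold of fruit for the family, and for the guide arms fruit was 1.54-fold above stem, 1.71-fold above flower and 5.23-fold above leaf. With sums over hairpins, flower was 2.30-fold above leaf for the family and 2.91-fold for the passenger arms, and for the guide arms fruit was 0.950-fold of stem and 1.90-fold above leaf. The cause of these shifts was not tested. Without miR169l, an alternative chosen after the data were seen, the 5′ arm share was 86.0% in leaf, 60.0% in flower and 100% in fruit. The levels without it, added last, gave flower 2.32-fold above leaf and 3.58-fold above fruit for the family and 6.66-fold above leaf for the passenger arms, and for the guide arms fruit 0.753-fold of leaf and 0.465-fold of flower. The 6.66-fold rests on 6 tags in leaf. These levels include the 8 hairpins listed through flower alone, so no preference for flower is read from them. A 4-fold lead was met by 18 families and 49 sequences, against 30 and 81 at 2-fold. Windows of 100 and 250 kb, also chosen later, gave 8 and 9 hairpins with a neighbour, against 4 at 10 kb. In total 30 values under alternatives stayed within the counting interval of the reported fold or share, or, for counts, within 1.5 times. Of the rest 24 moved further and 5 turned round. The tally is not a measure of stability, as some values could not move. With sums over hairpins the arm shares of root and stem were fixed, since miR169l held all tags there. Arms taken from the place in the precursor gave identical shares. A size factor scales all families of a library alike, so ranks and distances between families are nearly fixed under such scalings. Sequences other than those of miR169l and miR169b had at most 25 tags, so depth and the listing limit bound what can be said of them.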
